A study of Mus musculus with 19 samples.

Results

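The 24 genes described here make, package, move, sense or break down gamma-aminobutyric acid (GABA), the main inhibitory transmitter of the brain. They were taken from the count table by symbol, as every gene whose symbol starts with Gabr or Gabbr together with 10 listed genes of GABA synthesis, transport, breakdown, postsynaptic anchoring and chloride transport, and were kept when at least 4 of the 19 mice had 10 or more counts. Of 31 candidate genes 27 met this rule, 24 of which are described, and all 24 were among the 18521 genes tested of 54232 in the table. The other 4 candidates had few reads, with at most 29 counts in any mouse for Gabra6, 11 for Gabrr1, and 2 each for Gabrp and Gabrr3.

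RNA sequencing was performed on the striatum of 6-month-old mice on the C57/BL/6 background, with 7 WT mice and 4 mice of each of the KI-96, KI-571 and KI-FL lines. KI-FL mice are HD140Q knock-in animals that carry 1 Htt allele with an expanded CAG repeat and express full-length mutant huntingtin, the protein of Huntington's disease. The KI-96 and KI-571 lines carry this knock-in allele shortened by CRISPR/Cas9, so that it encodes a short or a longer N-terminal mutant fragment under the endogenous promoter. The other allele is normal in all 3 lines. On western blots the paper saw only 1 small mutant fragment in KI-571 brain, and the same pattern in KI-96 brain. The labels do not give sex, litter or day of sacrifice.

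GABA-A receptors are chloride channels assembled from alpha, beta, and gamma or delta subunits, and the subunit set decides where a receptor sits and how it responds, while GABA-B receptors couple to G proteins as a dimer of Gabbr1 and Gabbr2 products. Most striatal neurons are themselves GABAergic projection neurons, so the genes of GABA synthesis are abundant in this tissue. How strongly GABA inhibits a neuron also depends on its chloride gradient, which is set by the chloride exporter KCC2 (Slc12a5) and the importer NKCC1 (Slc12a2).

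The tissue label was checked with 11 markers of striatal projection neurons, which summed to between 6369 and 10650 counts divided by library size (CPM) in every mouse. None of the 11 had an unadjusted p under 0.05 in any KI genotype against WT. Of all genes, 7.44% had one in KI-96, 7.72% in KI-571 and 16.7% in KI-FL mice. The libraries held 12669809 to 26388542 reads assigned to genes (median 18202412). Some libraries stood apart. KI-FL replicate 4 had no count for 3186 of the tested genes, against 10 to 222 in the other mice. Summed choroid plexus markers reached 5074 and 5305 CPM in KI-571 replicates 2 and 4 and 3009 CPM in KI-FL replicate 1, against at most 405 CPM elsewhere, and 8 cortical markers summed to 1077 CPM in WT replicate 3, against at most 456 CPM elsewhere. These 5 libraries are the mice left out together in an alternative setting below. That setting keeps only replicates 1 and 3 of KI-571 and replicates 2 and 3 of KI-FL. Xist, the transcript of the inactive X chromosome in females, was abundant in 6 mice (every KI-96 mouse, 1 WT and 1 KI-FL) and near 0 in the other 13. Htt itself was at 168 to 194 CPM in WT, 143 to 240 in KI-96, 104 to 141 in KI-571, and 136 to 179 in KI-FL mice. These counts cover the whole gene and do not show where an allele was cut.

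At an unadjusted p under 0.05, 5 members lay lower in KI-571 than in WT mice and none higher (3.83% of all genes lower and 3.89% higher). With the 5 mice that stood apart left out, only Gabra3 and Gabrq of these members were found again, from replicates 1 and 3 of KI-571. None of the 5 members passed an adjusted p of 0.05. The DNA before an annotated start of each is shown: the receptor subunit genes Gabra3 and Gabrq, the synthesis genes Gad1 and Gad2, and the GABA transporter gene Slc6a11. The sequences come from RefSeq (GRCm38.p6), read 5′ to 3′ on the strand of the gene, and hold up to 250 bases before the RefSeq start, ended where an annotated exon begins. Where a gene had several starts, the longest window was taken. The Gad1 window lies inside the gene as annotated for the counts here, which starts at 70553072. Capitals mark 3 motifs, searched on both strands. The first is the TATA box, TATAAA. The second is the GC box bound by Sp factors, GGGCGG. The third is the cyclic AMP response element, TGACGTCA. None of these motifs overlaps another in the sequences shown. RefSeq promoters were at hand for 21 of the 24 symbols, and for Gphn no base was left before an annotated exon.
Gabra3 (chrX:72656920-72657169, - strand, 250 bases): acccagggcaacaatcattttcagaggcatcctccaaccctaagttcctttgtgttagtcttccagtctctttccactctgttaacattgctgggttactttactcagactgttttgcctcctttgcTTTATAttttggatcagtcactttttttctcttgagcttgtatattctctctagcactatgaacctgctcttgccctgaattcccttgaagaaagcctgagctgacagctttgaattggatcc
Gabrq (chrX:72824928-72825177, + strand, 250 bases): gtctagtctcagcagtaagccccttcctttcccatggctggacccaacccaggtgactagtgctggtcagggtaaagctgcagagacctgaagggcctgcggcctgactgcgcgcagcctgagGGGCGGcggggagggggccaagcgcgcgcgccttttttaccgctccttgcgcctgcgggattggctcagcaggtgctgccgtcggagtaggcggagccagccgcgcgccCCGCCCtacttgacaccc
Gad1 (chr2:70561879-70562041, + strand, 163 bases): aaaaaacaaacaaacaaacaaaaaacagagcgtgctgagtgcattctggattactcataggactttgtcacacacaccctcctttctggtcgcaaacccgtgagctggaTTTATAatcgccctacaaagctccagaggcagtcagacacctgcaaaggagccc
Gad2 (chr2:22622077-22622204, + strand, 128 bases): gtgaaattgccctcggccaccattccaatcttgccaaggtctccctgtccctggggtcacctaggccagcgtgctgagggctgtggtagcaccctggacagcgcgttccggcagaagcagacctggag
Slc6a11 (chr6:114130991-114131240, + strand, 250 bases): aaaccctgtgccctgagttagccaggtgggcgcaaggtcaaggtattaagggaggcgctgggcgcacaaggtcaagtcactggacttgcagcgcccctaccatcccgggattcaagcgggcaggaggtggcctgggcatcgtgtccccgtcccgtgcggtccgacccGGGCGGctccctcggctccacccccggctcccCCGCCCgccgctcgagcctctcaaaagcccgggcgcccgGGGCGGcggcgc
The TATA box letters were found in 1 copy each before Gabra3 and Gad1, the GC box letters in 2 copies before Gabrq and in 3 before Slc6a11, and the cyclic AMP element in none. Of 32851 promoter windows of 250 bases over all genes, 12.4% hold the TATA box letters, 32.7% the GC box, and 1.55% the cyclic AMP element. The GC content was 42.4% before Gabra3, 46.6% before Gad1, 62.5% before Gad2, 67.2% before Gabrq, and 71.2% before Slc6a11, against a median of 52.4% over all promoters, and the Gad1 and Gad2 windows are shorter than the rest.

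In the WT striatum the 23 members with a known exon length spanned from 114 ± 12.6 (SD, n = 7) CPM per kilobase of exon for Gabbr1 to 0.325 ± 0.209 for Gabre. Gabbr1 was followed by Slc12a5 at 95.1 ± 7.84, by the vesicular GABA transporter gene Slc32a1 at 94.7 ± 11.4, and by Gad1 at 92.8 ± 16.9 and Gad2 at 88.4 ± 17.6, whose products make GABA from glutamate. Abat, the GABA transaminase that breaks GABA down, had 70.1 ± 7.55 CPM per kilobase. The synthesis genes and Abat all lay above every GABA-A subunit described.

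Among these GABA-A subunits the highest level per kilobase in WT mice was that of Gabrd at 44.3 ± 4.23, the delta subunit of extrasynaptic receptors, followed by Gabra4 at 25.7 ± 3.32. Gabrb2, Gabra3 and Gabra2 lay between 13.3 and 16.4, Gabrb1 at 9.34, and Gabra5, Gabrg3 and Gabrg1 between 4.36 and 6.05. Gabrr2, Gabrq and Gabre, together with the transporter gene Slc6a13, were far below, at 1.03 or less. Neighbours in this order mostly shared their range over the 7 WT mice. The ranges did not touch at 4 places, between Gabrd and Gabra4, between Gabra4 and the scaffold gene Gphn, between Gabrb1 and Gabra5, and between Gabrg1 and Gabrr2.

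**Figure D1:**
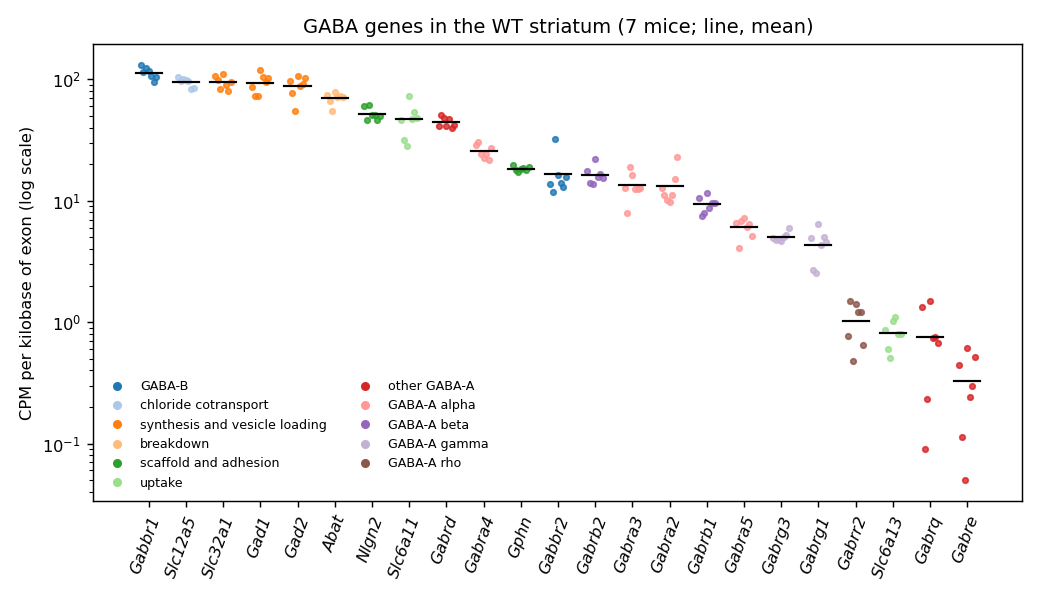
Level of each member in the 7 WT mice, in CPM per kilobase of exon on a log scale. Points are mice, the line is the mean, and colors give the class. Gabbr1, Slc12a5 and the synthesis genes lie at about the same height on the left, and Gabrr2, Slc6a13, Gabrq and Gabre form a low group on the right.

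Several of these genes are neighbours in the genome (GRCm38). Gabrg1, Gabra2, Gabra4 and Gabrb1 share chromosome 5, Gabrg3 and Gabra5 share chromosome 7, and Gabre, Gabra3 and Gabrq lie on the X chromosome. Exons of Gabra4 and Gabrb1 overlap by 28 bases on opposite strands, and those of Slc32a1 overlap the opposite-strand gene Gm14205 by 697 bases. The strand setting of the counting was not given in the sources used here, so reads from such stretches cannot be assigned to 1 gene with certainty.

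The first question was which of these genes differ between each KI genotype and WT. No member passed an adjusted p of 0.05 by edgeR's quasi-likelihood test, the main test, in any of 8 comparisons (3 KI genotypes against WT, their mean against WT, 3 pairs of KI genotypes, and any difference among the 4). Over all genes tested, the same test called 5 genes in KI-96 (0.027%), 6 in KI-571 (0.0324%), and 36 in KI-FL mice (0.194%). At an unadjusted p under 0.05, 1 of 24 members was found in KI-96 mice, Gabbr1, which was higher (7.44% of all genes in either direction, 4.35% higher and 3.09% lower), 5 in KI-571 mice, all lower (7.72% in either direction, 3.89% higher and 3.83% lower), and 4 in KI-FL mice, Gabra3 and Gabrg1 lower and Gabbr1 and Slc32a1 higher (16.7% in either direction, 8.84% lower and 7.89% higher). The share of members was 4.17% in KI-96, 20.8% in KI-571, and 16.7% in KI-FL mice, the last no higher than that of all genes. The 3 comparisons use the same 7 WT mice. Choroid plexus markers summed to 5074 and 5305 CPM in KI-571 replicates 2 and 4, against at most 405 CPM in WT mice. The part of these markers in the KI-571 values was not tested. All 4 KI-96 mice but only 1 of the 7 WT mice had high Xist. Genotype and sex can thus hardly be told apart in KI-96 against WT, also for the members on the X chromosome. With Xist as a covariate 0 members and 1.17% of all genes had an unadjusted p under 0.05 there. For the mean of the KI genotypes 4 of 24 members were found, Gabbr1 higher and Gabra3, Gad1 and Slc6a11 lower (12.9% of all genes in either direction, 6.03% higher and 6.85% lower, and 0.054% by the adjusted p). In the test of any difference among the genotypes 3 were found, Gabbr1, Gabra3 and Gabrb2 (11.7% of all genes, and 0.14% by the adjusted p).

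DESeq2, the other tool, called 0 members in KI-96 (0.151% of all genes) and 0 in KI-571 mice (0.551%), and called Gabra3 in KI-FL mice (2.75%). It also called Gabra3 in the mean of the KI genotypes (1.47%) and in the test of any difference (2.33%), and no member in the 3 pairs of KI genotypes.

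The direction of the members, passed or not, was mixed in KI-96 mice, where 15 of 24 were above WT and 9 below, with a median log2 fold change of 0.04 against -0.02 over all genes. In KI-571 mice 6 were above and 18 below, with a median of -0.15 against -0.01 over all genes. In KI-FL mice 10 were above and 14 below, with a median of -0.08 against -0.03 over all genes. In bulk tissue, fewer cells of a type and less RNA per cell cannot be told apart, and this holds for every difference below.

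**Figure D2:**
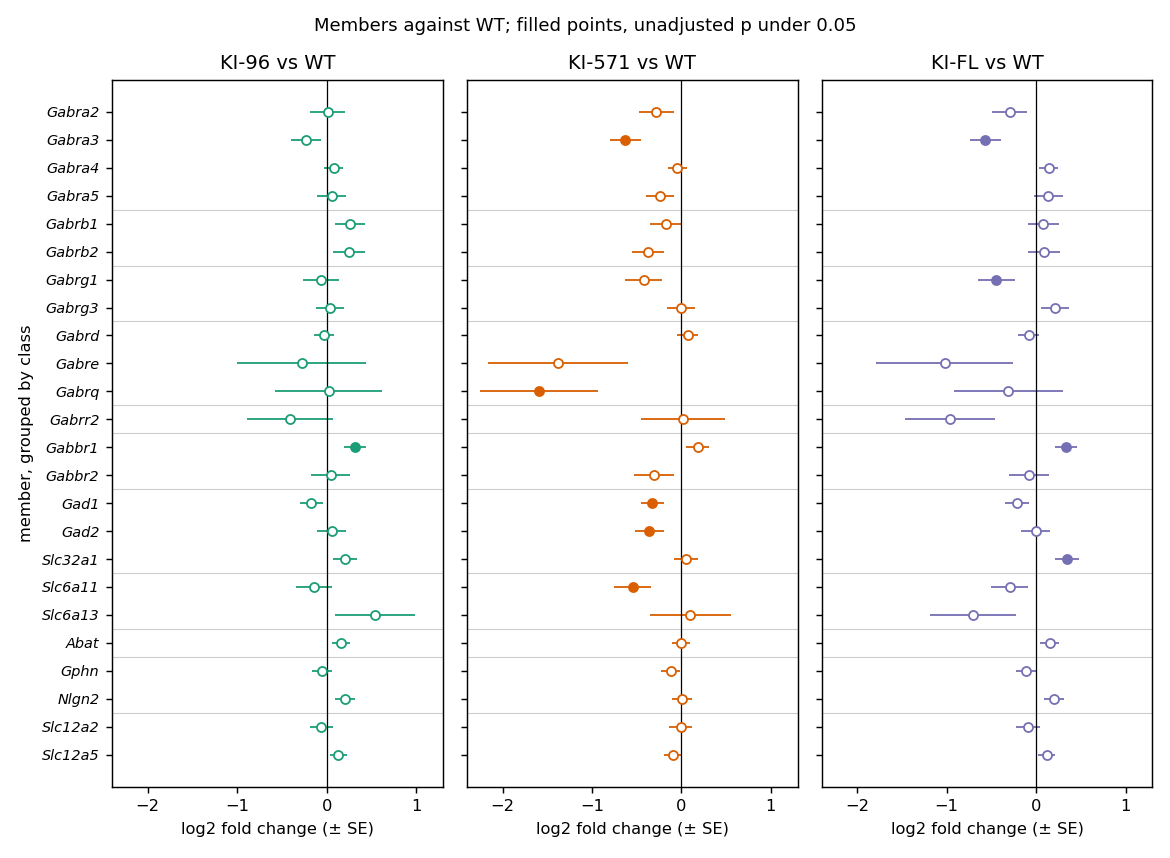
Log2 fold change (± SE) of the 24 members in each KI genotype against WT, ordered by class. Filled points have an unadjusted p under 0.05. In the KI-571 panel 18 of 24 points lie left of 0, and Gabra3 lies left of 0 in all 3 panels.

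Gabra3, the alpha3 subunit gene on the X chromosome, had the smallest p of these genes in KI-571 and in KI-FL mice against WT. Its level was 31.1 to 74.8 CPM in WT mice with a median of 50.2. The highest WT value was that of WT replicate 3, the library with 1077 CPM of cortical markers. The part of these markers in the Gabra3 values was not tested. KI-96 mice had 48.8, 37.8, 42.6 and 50.5 CPM, KI-571 mice 28.6, 32.6, 34.8 and 40.4, and KI-FL mice 26.7, 37.0, 38.1 and 40.5. All 8 KI-571 and KI-FL values lay below 6 of the 7 WT mice, and WT replicate 2, at 31.1 CPM, lay among them. This gave a log2 fold change of -0.63 ± 0.17 (SE) in KI-571 (adjusted p = 0.209), -0.57 ± 0.17 in KI-FL (adjusted p = 0.127), and -0.23 ± 0.17 in KI-96 mice (adjusted p = 0.790). In the mean of the KI genotypes it was -0.47 ± 0.13 (adjusted p = 0.116).

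The KI genotypes were also compared with each other for Gabra3. KI-571 lay below KI-96 by a log2 fold change of -0.40 ± 0.19 (adjusted p = 0.900) and KI-FL below KI-96 by -0.34 ± 0.19 (adjusted p = 0.624), and KI-FL and KI-571 differed by 0.06 ± 0.19 (adjusted p = 0.944). By DESeq2 the adjusted p against WT was 0.0427 in KI-FL and 0.0310 in the mean of the KI genotypes. Without WT replicate 2 the adjusted p of edgeR became 0.0440 in the mean. Over all 9 alternative settings the adjusted p ran from 0.0427 to 0.479 in KI-FL and from 0.0612 to 0.845 in KI-571, with a log2 fold change between -0.64 and -0.39 in KI-FL and between -0.69 and -0.62 in KI-571. With the 5 mice that stood apart left out, an alternative chosen after seeing the data, Gabra3 in KI-FL was at -0.39 (adjusted p = 0.428). Only replicates 2 and 3 of KI-FL enter this value.

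**Figure D3:**
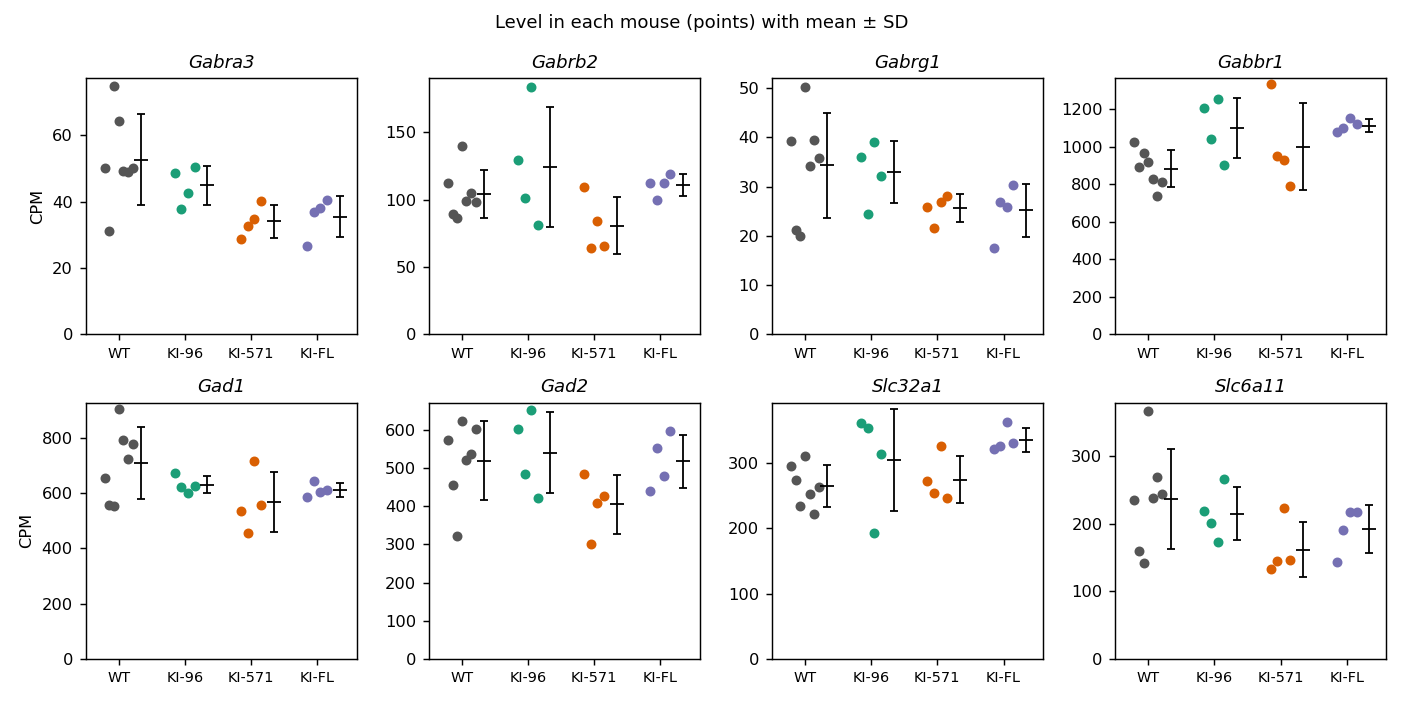
CPM of 8 members in each mouse, with the mean ± SD beside the points (7 WT and 4 mice of each KI genotype, axes from 0). For Gabra3 the KI-571 and KI-FL points lie below 6 of the 7 WT points, and for Gabbr1 and Slc32a1 the 4 KI-FL points lie above all WT points. How many of all genes separate in this way was not counted.

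Gabra2, Gabra4 and Gabra5 did not pass in any comparison with WT. Gabra2, an alpha subunit of synapses on projection neurons, was at -0.28 ± 0.20 in KI-571 and -0.30 ± 0.20 in KI-FL mice, with WT values that spread from 75.2 to 175 CPM. Gabra4, which pairs with the delta subunit in extrasynaptic receptors, was at -0.05 ± 0.11 in KI-571 and 0.14 ± 0.11 in KI-FL. Gabra5 was at -0.24 ± 0.16 in KI-571 and 0.14 ± 0.16 in KI-FL. KI-FL lay above KI-571 by 0.38 ± 0.18 (adjusted p = 0.553), a difference of 0.24 without KI-FL replicate 3. The difference was 0.75 with the 5 mice that stood apart left out, from replicates 1 and 3 of KI-571 and 2 and 3 of KI-FL only.

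For the beta subunits, which every typical GABA-A receptor needs, Gabrb1 and Gabrb2 showed a different order of the genotypes. Both lay above WT in KI-96 and KI-FL mice and below WT in KI-571 mice, without passing the test. Gabrb1 was at 103 to 161 CPM in WT mice, at 155, 112, 246 and 107 in KI-96, at 138, 108, 106 and 107 in KI-571, and at 117, 135, 136 and 156 in KI-FL. On the log2 scale the difference from WT was 0.26 ± 0.17 in KI-96 (adjusted p = 0.762), -0.17 ± 0.17 in KI-571 (adjusted p = 0.936), and 0.08 ± 0.17 in KI-FL (adjusted p = 0.843). The KI-96 values spread widely, from within the WT range to 246 CPM in replicate 3.

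Gabrb2 was at 86.6 to 139 CPM in WT mice, at 129, 102, 184 and 81.4 in KI-96, at 109, 63.8, 84.0 and 65.4 in KI-571, and at 112, 99.9, 112 and 119 in KI-FL. The difference between KI-571 and KI-96 was -0.62 ± 0.20 (adjusted p = 0.564), and that between KI-571 and WT was -0.37 ± 0.18 (adjusted p = 0.656). KI-FL lay above KI-571 by 0.46 ± 0.20 (adjusted p = 0.513). Gabrb1 lay below KI-96 in KI-571 by -0.43 ± 0.20 on the log2 scale (adjusted p = 0.880). In KI-96 replicate 3 both genes had their highest value of the 19 mice, and this library also had 24.2% of its reads outside genes, against 11.1% to 16.0% in the others. Without this mouse Gabrb2 in KI-96 against WT was at -0.0056 on the log2 scale, below WT, and the difference between KI-571 and KI-96 was -0.37 for Gabrb2 and -0.12 for Gabrb1. With the 5 mice that stood apart left out, Gabrb2 differed by -0.36 between KI-571 and KI-96 and by 0.13 between KI-FL and KI-571.

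Gamma subunits are part of most synaptic GABA-A receptors. Gabrg1 was at 19.9 to 50.3 CPM in WT mice with a median of 35.8. KI-96 mice had 36.0, 24.4, 38.9 and 32.1 CPM, KI-571 mice 25.8, 21.6, 26.9 and 28.1, and KI-FL mice 17.5, 27.0, 25.8 and 30.3. WT replicates 2 and 3, at 21.2 and 19.9 CPM, lay among or below these mice, and the other 5 WT mice lay above all KI-571 and KI-FL mice. The log2 fold change was -0.42 ± 0.21 in KI-571 (adjusted p = 0.656) and -0.45 ± 0.21 in KI-FL (adjusted p = 0.279). Gabrg3 was at -0.01 ± 0.16 in KI-571 and 0.21 ± 0.16 in KI-FL.

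Gabrd was close to WT in all genotypes, at -0.03 ± 0.11 in KI-96, 0.07 ± 0.11 in KI-571, and -0.09 ± 0.11 in KI-FL mice, with 99.1 to 157 CPM over the 19 mice.

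Gabre, Gabrq, Gabrr2 and Slc6a13 had few reads. Gabrq, the theta subunit gene, had 124, 9, 21, 153, 97, 115 and 95 counts in WT replicates 1 to 7, 42, 32, 149 and 79 in KI-96, 21, 24, 31 and 23 in KI-571, and 2, 36, 93 and 82 in KI-FL. The KI-571 mice were uniformly low, but WT replicates 2 and 3 lay at or below them. Its log2 fold change in KI-571 was -1.60 ± 0.66 (adjusted p = 0.534). Gabre, the epsilon subunit gene on the same chromosome, had 4 to 64 counts in WT mice, with WT replicates 2 and 3 again lowest at 10 and 4. It had 5, 4, 3 and 32 counts in KI-571 mice, and its log2 fold change there was -1.38 ± 0.78 (adjusted p = 0.739).

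Gabrr2, a rho subunit gene, and Slc6a13, the transporter GAT2 of meninges and vessels, had 0 counts in KI-FL replicate 4, as did Gabre, where the other KI-FL mice had 20 to 29, 18 to 49, and 8 to 30. This is the library with 3186 tested genes at 0, and 0 counts there allow up to 0.193 CPM (3 counts of its total, counting error only). The log2 fold change of Gabrr2 in KI-FL against WT was -0.96 ± 0.51 (adjusted p = 0.342) and -0.55 without this mouse. Slc6a13 in KI-FL against KI-96 was -1.25 ± 0.53 (adjusted p = 0.529) and -0.84 without it.

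**Figure D4:**
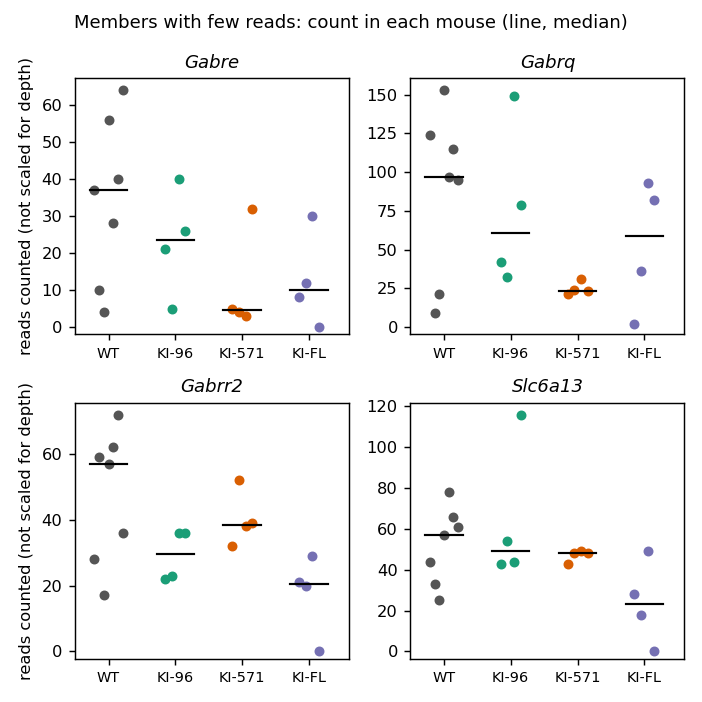
Reads counted for the 4 members with few reads in each mouse (points) with the group median (line), not scaled for depth. KI-FL replicate 4 is at 0 for Gabre, Gabrr2 and Slc6a13, and the 4 KI-571 mice lie between 21 and 31 reads for Gabrq.

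Gabbr1, the GABA-binding subunit of the GABA-B receptor (chromosome 17, 37045966 to 37075067, plus strand), was higher than WT in KI-FL mice without overlap. The share of all genes without overlap between KI-FL and WT was not counted, here or for the genes below. At an unadjusted p under 0.05, 16.7% of all genes were found in KI-FL mice. WT mice had 737 to 1023 CPM with a median of 892, and KI-FL mice 1076, 1097, 1153 and 1120. KI-96 mice had 1205, 1039, 1253 and 902 CPM, of which 3 lay above all WT mice, and KI-571 mice had 1333, 949, 930 and 789. Against WT, the log2 fold change was 0.33 ± 0.13 in KI-FL (adjusted p = 0.198), 0.32 ± 0.13 in KI-96 (adjusted p = 0.636), and 0.18 ± 0.13 in KI-571 (adjusted p = 0.835), where it was 0.0096 without KI-571 replicate 1, the mouse at 1333 CPM. Its partner Gabbr2 was at 0.04 ± 0.22 in KI-96, -0.31 ± 0.22 in KI-571 and -0.08 ± 0.22 in KI-FL mice.

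For GABA synthesis, Gad1 had 555 to 905 CPM in WT mice with a median of 722. It had 672, 622, 601 and 626 in KI-96, 537, 457, 716 and 557 in KI-571, and 585, 643, 603 and 612 in KI-FL mice. This gave a log2 fold change of -0.32 ± 0.13 in KI-571 (adjusted p = 0.519), -0.17 ± 0.13 in KI-96, and -0.21 ± 0.13 in KI-FL mice. WT replicates 1, 2 and 3, at 655, 556 and 555 CPM, lay within the range of the KI-571 mice. The 9 markers of GABA interneurons, which also express these genes, summed to 292 to 448 CPM in WT and 197 to 380 CPM in KI-571 mice. At an unadjusted p under 0.05, 1 of 9 (Calb2) was lower in KI-571, against 3.83% of all genes. The part of interneurons in these values was not tested. Gad2 was at -0.36 ± 0.16 in KI-571 (adjusted p = 0.606) and at -0.01 ± 0.16 in KI-FL mice.

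Slc32a1, whose product loads GABA into vesicles, lay above WT in KI-FL mice. It had 222 to 311 CPM in WT mice and 322, 326, 364 and 331 in KI-FL mice, all 4 above every WT mouse, a log2 fold change of 0.34 ± 0.13 (adjusted p = 0.21). How many of all genes separate in this way was not counted. Slc32a1 was at 0.20 ± 0.14 in KI-96 and 0.05 ± 0.14 in KI-571 mice. In KI-FL mice Gad1 was thus at -0.21, Gad2 at -0.01 and Slc32a1 at 0.34 on the log2 scale, and the difference between these genes was not tested.

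Slc6a11, the GABA transporter GAT3 of astrocytes (chromosome 6, 114131241 to 114249952, plus strand), was at 142 to 367 CPM in WT mice with a median of 238. KI-96 mice had 219, 201, 173 and 267 CPM, KI-571 mice 133, 145, 223 and 147, and KI-FL mice 143, 191, 218 and 218. On the log2 scale the difference from WT was -0.55 ± 0.21 in KI-571 (adjusted p = 0.464) and -0.30 ± 0.20 in KI-FL (adjusted p = 0.471), with WT replicates 2 and 3 again at the lower end, at 159 and 142 CPM. The 7 astrocyte markers summed to 3295 to 4028 CPM in WT (median 3471) and 3444 to 4006 in KI-571 mice (median 3749). The median sum was thus higher in KI-571 than in WT mice. Of the 7, 2 were lower in KI-571 at an unadjusted p under 0.05 (Agt and Aqp4, against 3.83% of all genes). In KI-FL mice the 7 markers summed to 3027 to 3426 CPM (median 3131), with 3 of 7 lower (Aqp4, Gfap and Gja1, against 8.84% of all genes). The part of astrocytes in the Slc6a11 values was not tested.

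The remaining genes were closer to WT. With the lines in the order KI-96, KI-571, KI-FL, the log2 fold change of Abat was 0.16 ± 0.10, -0.01 ± 0.10 and 0.15 ± 0.10. Nlgn2, an adhesion protein of inhibitory synapses, was at 0.21 ± 0.11 (adjusted p = 0.697), 0.01 ± 0.11 and 0.20 ± 0.11 (adjusted p = 0.364), and Gphn, whose product gephyrin anchors GABA-A receptors, at -0.05 ± 0.11, -0.12 ± 0.11 and -0.11 ± 0.11.

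The chloride transporters did not pass the test in any comparison. Slc12a5 was at 0.13 ± 0.10, -0.09 ± 0.10 and 0.12 ± 0.10, and Slc12a2 at -0.06 ± 0.13, -0.01 ± 0.13 and -0.09 ± 0.13, with the lines in the same order. The ratio of their CPM, a description not corrected for length, was 4.19 ± 0.906 (SD) in WT, 4.67 ± 0.598 in KI-96, 4.04 ± 1.13 in KI-571, and 4.75 ± 0.688 in KI-FL mice.

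The second question was how the KI genotypes differ from each other. Against KI-96, 21 of 24 members were lower in KI-571, 5 of them at an unadjusted p under 0.05 (Gabra3, Gabrb1, Gabrb2, Gabrq and Gad2; 5.52% of all genes in either direction, 2.38% higher and 3.14% lower), with a median log2 fold change of -0.26 against 0.00 over all genes. Without KI-96 replicate 3 this count was 2, neither of them among the 5 (Slc12a5 and Slc32a1), and the difference of Gabrq went from -1.62 to -1.06. The count was also 2 without KI-96 replicate 1 or KI-571 replicate 2, and over single mice left out it ran from 2 to 6. Between KI-FL and KI-96 the count was 1 (Slc6a13, lower; 8.9% of all genes in either direction, 3.77% higher and 5.13% lower), and between KI-FL and KI-571 it was 2 (Gabra5 and Gabrb2, both higher in KI-FL; 8.9% of all genes in either direction, 4.23% higher and 4.67% lower). None passed the adjusted threshold in these 3 comparisons, neither by edgeR (0.0054% of all genes between KI-571 and KI-96, 0% between KI-FL and KI-96, 0.0864% between KI-FL and KI-571) nor by DESeq2 (0.189%, 0.205% and 0.475%). All 4 KI-96 mice had high Xist and no KI-571 mouse had, so that genotype and sex cannot be told apart between these groups. With Xist as a covariate the count of 5 became 1, Gabrb2. Choroid plexus markers were higher in KI-571 than in KI-96 mice for 5 of 5 genes at an unadjusted p under 0.05, against 2.38% of all genes. Their sums were 198, 5074, 45.1 and 5305 CPM in KI-571 replicates 1 to 4 and 35.5 to 91.3 CPM in KI-96 mice. The part of these markers in the GABA genes was not tested.

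Of 33 further genes of GABA metabolism, receptor trafficking and auxiliary subunits, 32 were tested, and none passed the adjusted threshold by edgeR. DESeq2 called Gabarapl1, Iqsec3 and Slc38a2 in KI-FL mice, where it called 2.75% of all genes. At an unadjusted p under 0.05, 4 of the 32 were found in KI-96 (2 higher, 12.5% against 7.44% of all genes), 9 in KI-571 (5 higher, 28.1% against 7.72%), and 7 in KI-FL mice (5 higher, 21.9% against 16.7%). Slc38a2, a glutamine carrier that supplies the precursor of glutamate and GABA, had the smallest p in the mean of the KI genotypes, with a log2 fold change of -0.43 ± 0.12 in KI-96, -0.42 ± 0.12 in KI-571, and -0.43 ± 0.12 in KI-FL mice. Its level was 112 to 180 CPM in WT mice, 90.0 to 122 in KI-96, 94.4 to 118 in KI-571 and 92.8 to 109 in KI-FL mice, so that KI-96 and KI-571 overlapped WT and KI-FL did not. How many of all genes separate in this way was not counted. For Slc38a2 the mean of the KI genotypes differed from WT by -0.42 ± 0.09 (adjusted p = 0.0638 by edgeR and 0.00303 by DESeq2).

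Gabarapl1, a GABA-A receptor trafficking protein of the autophagy family, was at 347 to 488 CPM in WT and 515 to 569 CPM in KI-FL mice, without overlap. How many of all genes separate in this way was not counted, and 16.7% had an unadjusted p under 0.05 in KI-FL mice by edgeR. The log2 fold change of Gabarapl1 was 0.18 in KI-96, 0.25 in KI-571, and 0.40 ± 0.10 in KI-FL mice (adjusted p = 0.0819 by edgeR and 0.0121 by DESeq2). Iqsec3, a protein of inhibitory synapses, was at 98.0 to 201 CPM in WT and 90.3 to 129 in KI-FL mice, which overlap, and its log2 fold change there was -0.49 ± 0.15 (adjusted p = 0.118 by edgeR and 0.0369 by DESeq2). Slc38a3, a glutamine carrier of astrocytes, was at 0.42 ± 0.12 in KI-571 (adjusted p = 0.248) and at 0.04 and -0.02 in KI-96 and KI-FL.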

How the data were processed

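RNA of the striatum was sequenced in 19 mice. The table deposited by the authors holds whole-number counts without normalization. By the study's methods and the submitters' processing notes, trimmed reads were aligned to GRCm38 with STAR and counted with HTSeq. Versions, annotation and strand setting were not given in the sources used here. The 5 HTSeq summary lines and 4 columns that match no labelled mouse were left out. Each library was taken as 1 mouse and grouped by its labelled genotype. The study's sacrifice batch is not in the labels, and its removed WT sample is not named, so that all mice entered without covariates.

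Genes were kept by filterByExpr (minimum count 10, minimum total 15), scaled by TMM, and tested in 1 model of all mice by the quasi-likelihood F-test of edgeR 4.0.16 (R 4.3.3), with Benjamini-Hochberg adjustment over 18521 genes and a threshold of 0.05. CPM were scaled by TMM, and log2 CPM for single mice used a prior count of 2. Standard errors were derived from the F statistic. Alternatives were DESeq2 1.42.0, its size factors in edgeR, 2 other filters, Xist as a covariate, 1 surrogate variable (sva 3.50.0), WT replicates 1 to 4, the replicate number as a block, each mouse left out, and 5 mice that stand apart left out. The scripts were tested on simulated data. No pair of replicates agreed within sampling noise (chi-square per degree of freedom at least 8.59). Exons came from GENCODE mouse release 21.

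The members and lists were chosen with earlier results of these data known. Members named are, per class, that with the smallest p and that with the highest WT level, and any with an unadjusted p under 0.05 against WT. The other members are given by their values after these were seen. Of the further pathway genes, the 3 with the smallest p against WT are named, and Iqsec3 for its DESeq2 call, after its values were seen. Of the genes that meet the rule, 3 are not reported here, nor is 1 further pathway gene. Slc12a2 has no position or length here.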

Additional observations from a re-analysis of the deposited data

Results flagged for a closer look

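In each of 96 groups of mice (24 members in 4 genotypes) the highest and the lowest log2 CPM were compared with the rest by Dixon's ratio at its 95% limit, and 5 groups held a mouse that stood apart, where chance gives about 1 in 20. Gabbr2 was at 7.75 log2 CPM (216 CPM) in WT replicate 3, against 6.30 to 6.76 in the other WT mice, and this library also had the highest cortical marker sum, 1077 CPM. Gabrb1 was at 7.11 in KI-571 replicate 1, against 6.73 to 6.76. Gabre was at 0.87 in KI-571 replicate 4, from 32 counts, against -1.89 to -1.53 from 3 to 5 counts. Gabrr2 and Slc6a13 had 0 counts in KI-FL replicate 4 and were set to -3.25 by the prior count, against 0.58 to 0.75 and 0.61 to 1.37 in the other KI-FL mice.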

How the results depend on the processing

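Gabra3 kept its direction in KI-571 and KI-FL mice under all alternatives, but its adjusted call depended on the setting. The count of members at an adjusted p under 0.05 went from 0 with DESeq2 to 1 in KI-FL, 1 in the mean of the KI genotypes and 1 in the test of any difference, and without a filter on low counts to 1 in the mean and 1 in any difference, Gabra3 each time. Its log2 fold change was then -0.58 in KI-FL with DESeq2 (adjusted p = 0.0427), and in the mean -0.48 with DESeq2 (0.0310) and -0.49 without the filter (0.0334). Over single mice left out the count ran from 0 to 1 in the mean and stayed at 0 in the other 7 comparisons, and the 1 was Gabra3 without WT replicate 2 (-0.57, adjusted p = 0.0440). Its value over single mice left out ran from -0.57 to -0.37 in the mean and from -0.66 to -0.46 in KI-FL. The cause was not tested.

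The count at an unadjusted p under 0.05 ran from 0 to 5 in KI-96, 2 to 8 in KI-571 and 2 to 8 in KI-FL over single mice left out. In KI-96 it was 0 without KI-96 replicate 1, 5 without KI-96 replicate 4, and 2 without WT replicate 1, 2 or 3, KI-96 replicate 2, KI-571 replicate 4 or KI-FL replicate 4. In KI-571 it was 8 without WT replicate 2, 2 without WT replicate 4, and 3 without KI-571 replicate 1 or 2. In KI-FL it was 8 without WT replicate 3 and 2 without KI-FL replicate 3. With WT replicates 1 to 4 only, which enters fewer mice, it was 0, 2 and 1, and in KI-96 it was 0 with Xist as a covariate and 2 with the surrogate variable. With the 5 mice that stand apart left out, which also enters fewer mice, it was 2 in KI-96 and 2 in KI-FL. In KI-571 it was again 5, of which Gabra3 and Gabrq were among the 5 of all mice. With the replicate block it was 0, 1 and 1.

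Over single mice left out the same count ran from 2 to 5 in the mean of the KI genotypes, 2 to 6 in KI-571 against KI-96, 0 to 2 in KI-FL against KI-96, 0 to 4 in KI-FL against KI-571 and 1 to 7 in any difference. In the mean it was 1 with WT replicates 1 to 4, 1 with the block and 9 without the 5 mice. In KI-571 against KI-96 it was 1 with Xist and 2 with WT replicates 1 to 4. In KI-FL against KI-96 it was 3 without filter, 0 with Xist and 0 with the block. In KI-FL against KI-571 it was 1 with the size factors of DESeq2, Xist, the surrogate variable or the block and 0 with WT replicates 1 to 4. In any difference it was 5 without filter and 1 with Xist, WT replicates 1 to 4 or the block. Labels share replicate numbers between genotypes, but same-numbered mice are different animals, so the numbers were not taken as pairs. Deviations of same-numbered mice correlated at a median of -0.0048 over 24 pairs (5 over 0.1). For mice of other numbers the median was -0.0049 over 108 pairs (11 over 0.1).

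Of 30 reversals of sign under settings other than leaving out 1 mouse, all concerned values that passed no adjusted threshold. In KI-571 against WT, Abat went to 0.00074 with DESeq2, 0.00075 with its size factors, 0.027 with WT replicates 1 to 4, 0.044 without the 5 mice and 0.025 with the block. Gabrr2 went to -0.030 with the surrogate variable, -0.39 without the 5 mice and -0.010 with the block, Nlgn2 to -0.0059 without filter, -0.055 with WT replicates 1 to 4 and -0.058 with the block, Gabrg3 to 0.069 with WT replicates 1 to 4, 0.12 without the 5 mice and 0.058 with the block, and Slc32a1 to -0.021 with WT replicates 1 to 4 and -0.011 with the block. Without the 5 mice Slc12a5 went to 0.0069. In KI-96, Gabrq went to -0.55 with Xist, -0.021 with WT replicates 1 to 4, -0.13 without the 5 mice and -0.033 with the block, Gabrd to 0.19 and Gabra4 to -0.029 with Xist, Gabrg1 to 0.010 with WT replicates 1 to 4 and 0.057 with the block, and Gad2 to -0.060 with Xist and -0.038 without the 5 mice. In KI-FL, Gad2 went to 0.060 with WT replicates 1 to 4 and 0.091 with the block, and Gabrb2 to -0.024 without the 5 mice.

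Over single mice left out, the reversed values ran as follows. In KI-571 they ran from -0.056 to 0.032 for Abat, -0.11 to 0.012 for Gabra4, -0.022 to 0.16 for Gabrd, -0.15 to 0.068 for Gabrg3, -0.19 to 0.15 for Gabrr2, -0.082 to 0.12 for Nlgn2 and -0.042 to 0.10 for Slc32a1. In KI-96 they ran from -0.0056 to 0.41 for Gabrb2, -0.10 to 0.067 for Gabrd, -0.16 to 0.055 for Gabrg1, -0.22 to 0.20 for Gabrg3, -0.54 to 0.27 for Gabrq and -0.051 to 0.16 for Gad2. In KI-FL they ran from -0.65 to 0.072 for Gabrq and -0.10 to 0.051 for Gad2. The setting without filter moved the median of all genes in KI-FL by -0.16, so the fold changes there are relative to that shift. Reads limit Gabre, Gabrq, Gabrr2 and Slc6a13, which had at most 153 counts in any mouse.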
